A study of Mus musculus with 8 samples.

Results

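The 10 genes described here encode the core of the pyruvate dehydrogenase complex and the enzymes that switch it off and on. They are 4 kinases (Pdk1, Pdk2, Pdk3 and Pdk4), 2 phosphatases (Pdp1 and Pdp2) and 4 subunits (Pdha1, Pdhb, Dlat and Pdhx). They were taken by symbol from a table of 25378 genes, and all 10 were found and passed the filter on low values. The 8 RNA-seq libraries came from MC903-treated back skin of wild-type female C57BL/6 mice aged 6 weeks, 4 libraries a group. MC903 (calcipotriol), a vitamin D analog that gives an atopic dermatitis-like inflammation, was put on the skin of every mouse at 5 nmol for 10 days. For 4 libraries propionic acid (1 mM), which belongs to the short-chain fatty acids, followed 1 h after MC903, and for the other 4 a control application whose content the labels do not give. Skin was collected on day 11, and both groups had received MC903. The genes were chosen by their FPKM values (sequenced fragments, scaled to gene length and library size) in propionic acid against control, in these same libraries, so that contrast is given as a description and no test of it is offered.

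The complex sits in the mitochondrial matrix and turns pyruvate into acetyl-CoA, which commits carbon from glucose to oxidation or fat synthesis. The kinases phosphorylate the E1 alpha subunit and stop the reaction, and the phosphatases remove the phosphate and restart it. Pdk4 is known as the fasting and fatty acid-responsive kinase of muscle, heart and fat, and Pdk1 as a kinase induced by low oxygen. In mouse skin, a thin muscle layer and fat lie below the dermis, while activated epidermis uses much glucose through glycolysis.

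Pdk4, higher with propionic acid, and Pdk1, lower, were the 2 of 10 members whose groups did not overlap, so their promoters are shown. Among all tested genes the groups did not overlap for 3.16%, 2.06% higher and 1.1% lower, and since the contrast chose the members nothing is read from this. The sequences are from RefSeq (GRCm38.p6), read 5′ to 3′ in the sense of the gene, and run from 250 bases before the annotated start to 50 after it. RefSeq windows were at hand for 9 of the 10 members (Pdp1 had no entry), 11 windows in all. Capitals mark GC boxes (GGGCGG) and CCAAT boxes (CCAAT), searched on both strands.

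Pdk4 promoter, chr6:5496229-5496528, minus strand: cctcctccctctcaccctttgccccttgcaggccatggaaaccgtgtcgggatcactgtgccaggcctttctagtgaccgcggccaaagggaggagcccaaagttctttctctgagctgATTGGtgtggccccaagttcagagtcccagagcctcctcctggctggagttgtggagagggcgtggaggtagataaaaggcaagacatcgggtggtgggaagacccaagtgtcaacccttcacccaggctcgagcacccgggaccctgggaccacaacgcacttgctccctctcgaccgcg

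Pdk1 promoter, chr2:71872974-71873273, plus strand: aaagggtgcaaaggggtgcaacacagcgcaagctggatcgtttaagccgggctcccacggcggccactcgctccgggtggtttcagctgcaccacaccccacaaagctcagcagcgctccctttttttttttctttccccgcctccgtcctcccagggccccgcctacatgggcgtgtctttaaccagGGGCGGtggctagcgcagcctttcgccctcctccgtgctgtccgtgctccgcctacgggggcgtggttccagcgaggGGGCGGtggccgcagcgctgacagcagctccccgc

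The Pdk4 window held 1 CCAAT box, on the opposite strand and 131 bases before the start, and no GC box. The Pdk1 window shown held 2 GC boxes, the first 62 bases before the start, and no CCAAT box. Another Pdk1 window, at chr2:71874654-71874953, is not shown and held neither box. Of 32851 mouse promoter windows of the same length, 37.4% held a CCAAT box and 35.7% a GC box. The nuclear receptor half-site AGGTCA was in 16.3% of all windows and in 0 of the 11 member windows. The forkhead motif TGTTTAC (3.65% of all windows) and the TATA motif TATAAA (13.6%) were likewise in 0 of 11. The hypoxia core ACGTG, in 19.6% of all windows, was in 4 of the 11 but in neither Pdk4 nor Pdk1. The E-box CACGTG, which contains the hypoxia core, was in 7.15% of all windows and in 2 of the 11, those of Pdk2 and Pdp2. The absence of these letters from a window says nothing of whether a factor binds elsewhere.

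In mm10, by the GENCODE vM21 annotation, Pdk4 lies on chromosome 6 from 5483351 to 5496309 and Pdk1 on chromosome 2 from 71873224 to 71903858. Pdk2 is on chromosome 11, 95026258 to 95041354, and Pdk3 on chromosome X, 93764607 to 93832201. All 10 members are annotated as protein-coding. Pdp1 lies on chromosome 4 (11958184 to 11966452), Pdp2 on chromosome 8 (104591451 to 104599026), Pdha1 on chromosome X (160122209 to 160138413), Pdhb on chromosome 14 (8165996 to 8173025), Dlat on chromosome 9 (50634633 to 50659780) and Pdhx on chromosome 2 (103021075 to 103073513). The exons of Pdha1 overlap those of Map3k15 on the opposite strand by 603 bases, but Map3k15 averaged 0.220 FPKM over the 8 libraries. No other member shares exonic bases with another annotated gene.

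Depth was nearly equal, with 39034193 to 40194111 recovered reads per library. In the table as a whole, 12598 genes could be tested and 0 passed an adjusted p of 0.05 in limma, while 792 (6.29%) had an unadjusted p under 0.05, 513 higher (4.07%) and 279 lower (2.21%) with propionic acid. With median-of-ratios scaling that split was 418 higher and 370 lower. The voom fit to the recovered reads passed 0 genes and gave 747 an unadjusted p under 0.05. Control replicates 1 and 3 lay together at 1 end of the first principal component, at 31.8 and 26.7, against -16.3 and -0.926 for control replicates 2 and 4 and -26.0 to 11.8 for the propionic acid libraries. Where leaving out these 2 controls changes the direction of a member or of the median of a pathway list, both values are given. The labels call the libraries biological replicates but do not say whether each is 1 mouse, and p-values measure only the spread between these libraries.

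Among the kinases, Pdk4 made up most of the difference between the groups. Pdk4 phosphorylates E1 alpha and inhibits the complex. It had 185, 133, 75.6 and 172 FPKM in propionic acid replicates 1 to 4, against 7.34, 34.0, 8.81 and 27.4 FPKM in control replicates 1 to 4. Every propionic acid library was above every control, with replicate 3 the lowest of the propionic acid group, and among controls replicates 1 and 3 were far below replicates 2 and 4. The means were 141 ± 49.0 FPKM with propionic acid and 19.4 ± 13.3 FPKM in control skin (SD, n = 4 each), a ratio of 7.29. On the log2(FPKM + 1) scale the difference, propionic acid minus control, was 3.0 with a standard error (SE) of 0.49 and a 95% confidence interval of 1.90 to 4.09. It was the third highest difference of the 12598 genes, after Nnat (3.58) and Myh4 (3.26). Without control replicates 1 and 3 the difference was 2.1. In bulk tissue, more cells of a type that expresses a gene and more RNA of it per cell cannot be told apart.

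The counts behind Pdk4 were large. Its recovered reads ranged from 1018 to 25544 per library, so that counting error alone was 3.13% at the lowest. The spread between libraries was much wider, with a coefficient of variation of 34.7% in the propionic acid group and 68.8% in controls. Pdk4 was the most variable member in each group. With propionic acid its mean level exceeded that of 95.9% of the tested genes, and in control skin that of 73.8%.

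Pdk1, a kinase whose transcript is known to respond to low oxygen, was lower with propionic acid, by a much smaller difference. It had 7.90, 7.69, 8.34 and 8.49 FPKM in propionic acid replicates 1 to 4, against 10.4, 9.48, 11.1 and 10.4 FPKM in control replicates 1 to 4. The highest propionic acid value lay under the lowest control value. Means were 8.10 ± 0.376 FPKM with propionic acid and 10.4 ± 0.681 FPKM in control skin (SD, n = 4 each). The log2 difference was -0.32 (SE 0.09, 95% interval -0.53 to -0.11), and it ranged from -0.36 to -0.27 over all 20 alternative fits. Without control replicates 1 and 3 it was -0.27, with a 95% interval of -0.56 to 0.03. Of all tested genes, 87.2% had a smaller absolute difference.

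Pdk2, the most widely expressed kinase of the family, had 34.3, 23.5, 26.0 and 33.1 FPKM in propionic acid replicates 1 to 4, against 18.4, 26.1, 20.7 and 32.3 FPKM in control replicates 1 to 4. The groups overlapped, and the 2 lowest values were those of control replicates 1 and 3, the same libraries that were lowest for Pdk4. The log2 difference was 0.27 (SE 0.19, 95% interval -0.16 to 0.69), and without control replicates 1 and 3 it was -0.0081. Pdk3, a kinase with a narrow tissue range, had 3.01 to 3.97 FPKM with propionic acid and 3.27 to 4.13 FPKM in control skin, a log2 difference of -0.03 (SE 0.12). Its sign differed from this in 5 of the 20 alternative fits, and without control replicates 1 and 3 the difference was 0.07.

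**Figure D1:**
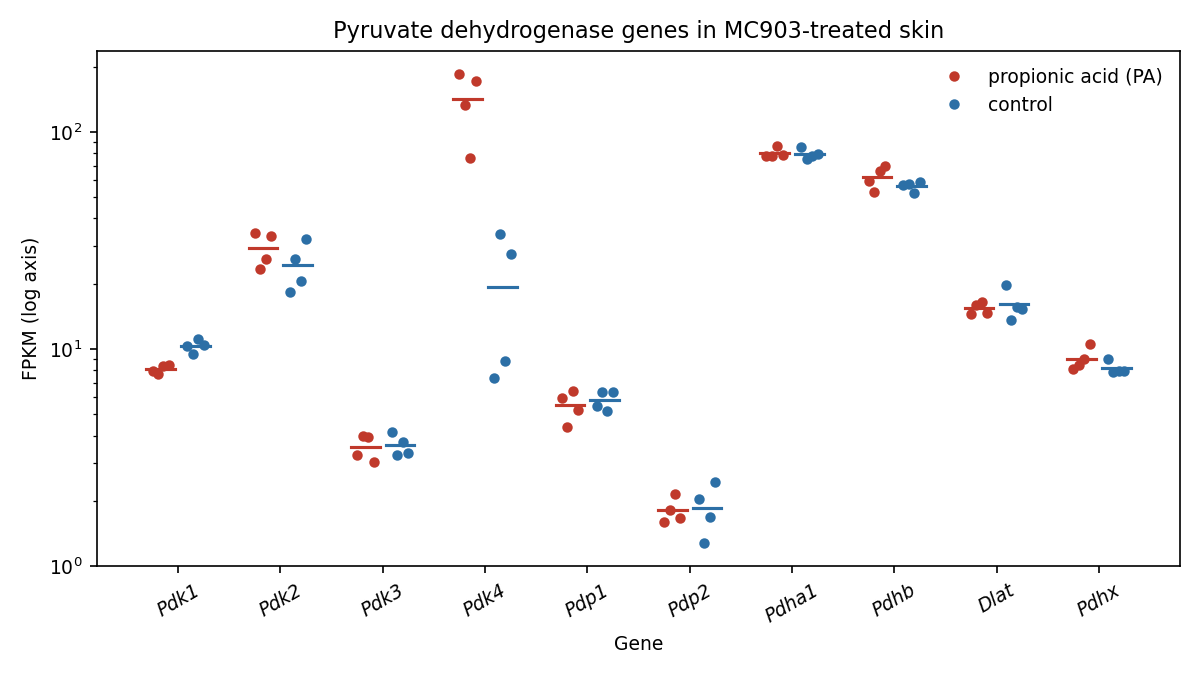
FPKM of the 10 genes on a log axis, with a point per library and a bar at the group mean (propionic acid left, control right, 4 libraries each). Pdk4 is higher with propionic acid (75.6 to 185 FPKM, against 7.34 to 34.0 FPKM in controls), Pdk1 is lower with propionic acid (7.69 to 8.49 FPKM, against 9.48 to 11.1 FPKM in controls), and the groups of the other 8 genes overlap.

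Pdk4 was also the larger part of the kinase transcripts with propionic acid. FPKM is per length of gene, so levels of different genes can be summed. Pdk4 accounted for 80.3%, 79.1%, 66.4% and 79.4% of the summed FPKM of the 4 kinases in propionic acid replicates 1 to 4, against 18.3%, 46.6%, 19.9% and 37.3% in control replicates 1 to 4. It held the largest share in every propionic acid library and in control replicate 2, where it was ahead of Pdk2 (46.6% and 35.9%). In control replicates 1, 3 and 4 Pdk2 was ahead, with 45.7%, 46.6% and 43.9%. The mean Pdk4 share was 76.3% ± 6.62 with propionic acid and 30.5% ± 13.8 in control skin (SD, n = 4 each), 45.8 percentage points apart. Without control replicates 1 and 3 the gap was 34.3 points.

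**Figure D2:**
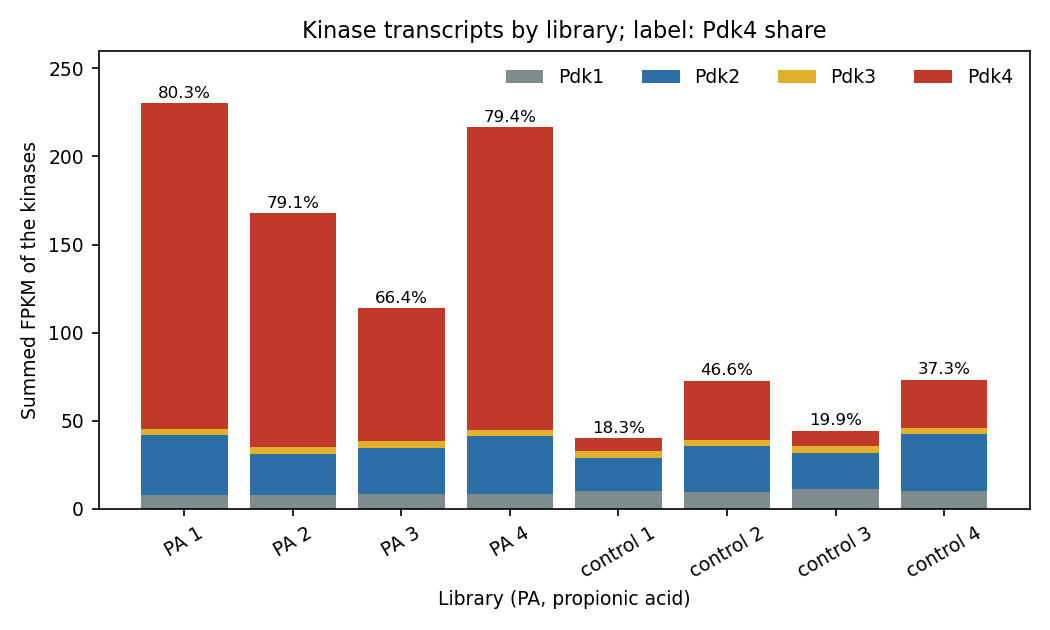
Summed FPKM of the 4 kinases in each library, stacked by gene, with the Pdk4 share written above each bar. Total height is 114 to 230 FPKM in the propionic acid libraries and 40.2 to 73.4 FPKM in the controls, while the part below Pdk4 stays between 32.9 and 46.0 FPKM in all 8.

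Without Pdk4, the kinase sums of the groups overlapped. Pdk1, Pdk2 and Pdk3 together had 40.9 ± 4.99 FPKM with propionic acid and 38.3 ± 5.69 FPKM in control skin. All 4 kinases together had 182 ± 52.8 FPKM with propionic acid and 57.7 ± 17.9 FPKM in control skin. Pdk4 FPKM stood at 9.06 to 23.4 times Pdk1 FPKM in propionic acid libraries and at 0.708 to 3.58 times in controls.

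The phosphatases, which reverse the kinases, were among the less abundant members, Pdp2 the lowest of all 10, and their group means differed by less than the spread between libraries. Pdp1, the calcium-sensitive form, had 5.97, 4.39, 6.41 and 5.25 FPKM in propionic acid replicates 1 to 4, against 5.49, 6.38, 5.20 and 6.32 FPKM in control replicates 1 to 4. Pdp2, the form known for its insulin response, had 1.60, 1.81, 2.15 and 1.67 FPKM in propionic acid replicates 1 to 4, against 2.03, 1.28, 1.69 and 2.45 FPKM in control replicates 1 to 4. Both groups interleaved for each gene. The log2 differences were -0.08 (SE 0.13) for Pdp1 and -0.01 (SE 0.14) for Pdp2, with 95% intervals of -0.37 to 0.21 and -0.34 to 0.31. Pdp2 rested on 295 to 549 reads per library, the fewest of the members, with a counting error of 5.82% at the lowest.

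The ratio of kinase to phosphatase transcripts followed Pdk4. Summed Pdk over summed Pdp FPKM was 30.4, 27.1, 13.3 and 31.3 in propionic acid replicates 1 to 4, against 5.34, 9.51, 6.44 and 8.38 in control replicates 1 to 4. The groups did not overlap, and propionic acid replicate 3 came nearest to the controls. Group means were 25.5 ± 8.34 with propionic acid and 7.42 ± 1.88 in control skin (SD, n = 4 each), a difference of 18.1. With Pdk4 left out of the kinase sum the groups overlapped, with means of 5.65 ± 0.844 with propionic acid and 4.96 ± 0.403 in control skin. These are transcript ratios and carry no measure of enzyme activity or of phosphorylated E1 alpha.

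The groups overlapped for all 4 subunits. Pdha1, the E1 alpha subunit that the kinases phosphorylate, had 77.9, 77.5, 86.0 and 78.6 FPKM in propionic acid replicates 1 to 4, against 85.7, 75.5, 77.4 and 79.0 FPKM in control replicates 1 to 4. Its highest library was 1.14 times its lowest, the narrowest range of the 10 genes, and the log2 difference was 0.01 (SE 0.09, 95% interval -0.20 to 0.22). Pdhb, the E1 beta subunit, had 59.3, 52.9, 66.0 and 69.9 FPKM in propionic acid replicates 1 to 4, against 57.1, 57.9, 52.4 and 59.0 FPKM in control replicates 1 to 4. The groups overlapped, with a log2 difference of 0.12 (SE 0.11). Dlat, the E2 acetyltransferase core, had 14.6 to 16.5 FPKM with propionic acid and 13.6 to 19.7 FPKM in control skin, a log2 difference of -0.04 (SE 0.12). Without control replicates 1 and 3 the Dlat difference was 0.09. Pdhx, which tethers the E3 enzyme to the core, had 8.08 to 10.6 FPKM with propionic acid and 7.87 to 8.98 FPKM in control skin, a log2 difference of 0.13 (SE 0.11).

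Ratios between subunits overlapped between the groups as well. Pdha1 over Pdhb FPKM was 1.30 ± 0.139 with propionic acid and 1.41 ± 0.0989 in control skin, and Dlat over Pdhx FPKM was 1.73 ± 0.227 with propionic acid and 1.96 ± 0.195 in control skin (SD, n = 4 each). The 4 subunits summed to 166 ± 10.9 FPKM with propionic acid and 160 ± 8.30 FPKM in control skin. Set against its substrate, Pdk4 FPKM was 2.37, 1.71, 0.880 and 2.19 times Pdha1 FPKM in propionic acid replicates 1 to 4, against 0.0856, 0.450, 0.114 and 0.347 times in control replicates 1 to 4. In 3 of the 4 propionic acid libraries the kinase FPKM exceeded that of its substrate, and in no control did it.

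The orders of mean levels differed in the place of Pdk4 and in that of Pdk1 and Pdhx. With propionic acid, Pdk4 was first, followed by Pdha1, Pdhb, Pdk2, Dlat, Pdhx, Pdk1, Pdp1, Pdk3 and Pdp2. In this order Pdhx (9.04 ± 1.09 FPKM) and Pdk1 (8.10 ± 0.376) did not differ beyond their spread. In control skin Pdha1 was first, followed by Pdhb, Pdk2, Pdk4, Dlat, Pdk1, Pdhx, Pdp1, Pdk3 and Pdp2. There, Pdk2 (24.4 ± 6.19 FPKM), Pdk4 (19.4 ± 13.3) and Dlat (16.1 ± 2.62) did not differ beyond their spread from 1 to the next.

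Over the 10 members, 0 passed the adjusted threshold in limma, where 0% of all tested genes did. The groups did not overlap for 1 member that was higher (2.06% of all tested genes) and for 1 that was lower (1.1%). The median log2 difference was -0.0020 over the members and 0.0061 over all genes tested. Because this contrast chose the members, nothing is read from these counts.

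**Figure D3:**
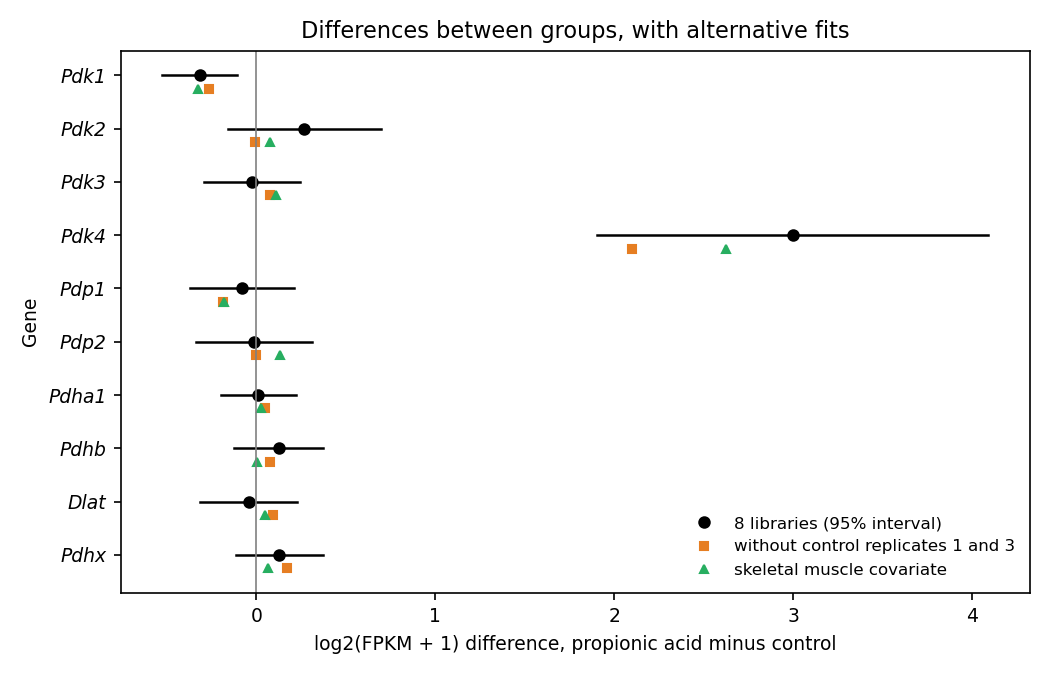
Difference in log2(FPKM + 1), propionic acid minus control, for each gene, with its 95% interval over 8 libraries (black), its value without control replicates 1 and 3 (orange) and its value with the skeletal muscle marker mean as a covariate (green). Pdk4 stays between 2.1 and 3.0 and Pdk1 below 0 in these fits, and the intervals are a description of the spread, not a test.

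Pdk4 is known to be abundant in muscle and fat, and whole skin samples hold both, so their markers were set beside it. Of 15 skeletal muscle markers, 10 had a higher mean with propionic acid, and none was at 0 in all libraries. Their summed level was 9410, 5038, 5452 and 10501 FPKM in propionic acid replicates 1 to 4, against 5658, 7591, 4851 and 5906 FPKM in control replicates 1 to 4. The groups overlapped on this sum, and the 2 propionic acid libraries highest in Pdk4, replicates 1 and 4, were also highest in muscle markers. The groups did not overlap for 4 of the 15, higher with propionic acid (Ckm, Atp2a1, Myh4 and Actn3), and for 1, lower (Myh1). Among all tested genes the shares without overlap were 2.06% higher and 1.1% lower. Actn3, the actinin of fast fibres, had 157 ± 58.9 FPKM with propionic acid and 39.5 ± 10.1 FPKM in control skin. Ckm, muscle creatine kinase, had 975.3 ± 362 FPKM with propionic acid and 476 ± 115 FPKM in control skin. Atp2a1, the calcium pump of fast fibres, had 694 ± 228 FPKM with propionic acid and 453 ± 91.0 FPKM in control skin. Myh4, the myosin of the fastest fibres, had 223 ± 110 FPKM with propionic acid and 24.7 ± 18.1 FPKM in control skin, and Myh1, another fast myosin, had 139.5 ± 90.3 FPKM with propionic acid and 417 ± 118 FPKM in control skin. None of the 15 passed (limma adjusted p = 0.0998 for Myh4 and for Actn3, the lowest of the list, and 0.392 for Myh1). Per 1000 FPKM of these markers, Pdk4 had 19.6, 26.4, 13.9 and 16.4 FPKM in propionic acid replicates 1 to 4, against 1.30, 4.47, 1.82 and 4.64 FPKM in control replicates 1 to 4, again without overlap. With the mean of the muscle list as a covariate, the Pdk4 log2 difference was 2.62.

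Of 10 adipocyte markers, 9 had a higher mean with propionic acid, and none was at 0 in all libraries. They summed to 3691, 1941, 4118 and 3907 FPKM in propionic acid replicates 1 to 4, against 3363, 1893, 1893 and 1848 FPKM in control replicates 1 to 4. The groups overlapped on this sum, with control replicate 1 the highest of the controls and propionic acid replicate 2 the lowest of its group. For 1 of the 10, Cidec, the groups did not overlap, against 2.06% of all tested genes that were higher without overlap. Cidec had 194 ± 49.1 FPKM with propionic acid and 90.8 ± 13.8 FPKM in control skin (limma adjusted p = 0.287). Per 1000 FPKM of adipocyte markers, Pdk4 had 18.4 to 68.4 FPKM with propionic acid and 2.18 to 17.9 FPKM in control skin. With the adipocyte list as a covariate, the log2 difference was 3.71. The share of muscle and fat in the Pdk4 difference beyond these values was not tested.

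**Figure D4:**
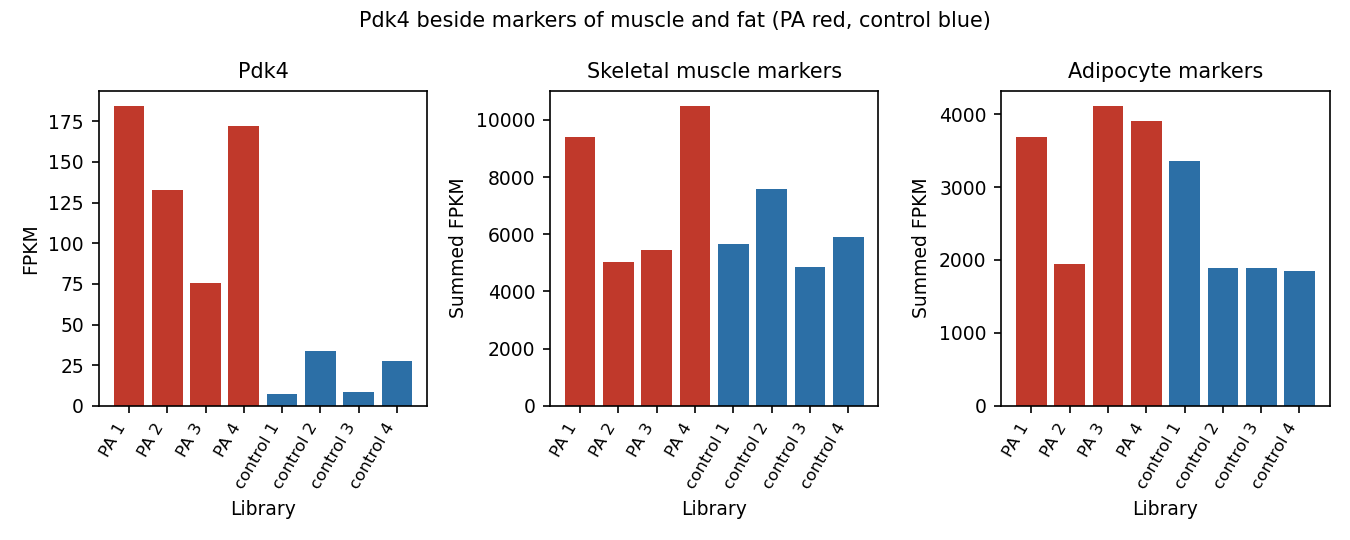
Pdk4 FPKM (left) and the summed FPKM of 15 skeletal muscle markers (middle) and 10 adipocyte markers (right) in each library, propionic acid in red and control in blue. Pdk4 separates the groups, and both marker sums overlap between them. Within the lists, Ckm, Atp2a1, Myh4, Actn3 and Cidec are higher with propionic acid without overlap, and Myh1 is lower. The share of muscle and fat in the Pdk4 difference was not tested.

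The skin itself was present in every library. The 8 keratinocyte markers summed to 5971 to 8846 FPKM with propionic acid and 6102 to 8452 FPKM in control skin. Of the 8, 2 had a higher mean with propionic acid. For 1, Krt5, the groups did not overlap, at 988 ± 67.0 FPKM with propionic acid and 1236 ± 192 FPKM in control skin. Among all tested genes 1.1% were lower without overlap. All 5 brown adipocyte markers had a higher mean with propionic acid, and their sum was 245 ± 66.8 FPKM with propionic acid and 210.0 ± 30.9 FPKM in control skin, with overlap. Most of that sum was Cidea and Elovl3, while Ucp1, the defining uncoupling protein of brown fat, averaged 0.0304 FPKM over all libraries. Of the 5, 3 passed the filter on low values, and 2 were below 1 FPKM in all libraries. All 7 hair follicle markers had a higher mean with propionic acid, and they summed to 148 ± 78.6 FPKM with propionic acid and 67.7 ± 13.2 FPKM in control skin. Only 1 of the 7 passed the filter on low values, and 2 were below 1 FPKM in all libraries. None of 6 macrophage markers had a higher mean with propionic acid, and they summed to 1311 ± 262 FPKM with propionic acid and 1480 ± 289 FPKM in control skin. Whether these shifts bear on Pdk4 was not tested. The fibroblast, macrophage, neutrophil, T cell, endothelial, hair follicle and erythrocyte marker sums overlapped between the groups.

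The genes whose pattern was most like that of Pdk4 over the 8 libraries, by Pearson's r of log2(FPKM + 1), were Stk11 (0.986), Tmem70 (0.978), Ucp3 (0.970), Slc25a42 (0.967) and Cyp2d22 (0.966). All 5 were higher with propionic acid without overlap, against 2.06% of all tested genes. Likeness to Pdk4, which itself separates the groups, favours such genes, so nothing is read from this count. Stk11, the kinase LKB1 that activates AMPK, had 29.5 ± 0.667 FPKM with propionic acid and 25.8 ± 1.56 FPKM in control skin. Ucp3, an uncoupling protein of the mitochondrial membrane, had 10.8 ± 2.67 FPKM with propionic acid and 1.51 ± 0.982 FPKM in control skin. When each group's mean was first removed, so that only differences among libraries of 1 group counted, the closest genes were Capns2 (0.990), Aif1l (0.986), Sms (0.986), Paip2 (0.983) and Mrpl32 (0.983). Capns2, a small calpain subunit, had 102, 86.2, 51.9 and 94.2 FPKM in propionic acid replicates 1 to 4, against 37.5, 107, 48.6 and 90.0 FPKM in control replicates 1 to 4. None of these 5 separated the groups. Both lists were picked as the highest among tested genes over the same 8 libraries, and they carry no p. The members and genes with clone names were left out of the ranking.

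The other genes of the pathway were examined as 6 lists, in which 76 of 79 genes could be tested. In limma 0 passed an adjusted p of 0.05 in either direction, and 4 had an unadjusted p under 0.05, namely Pfkm, Pfkfb1, Pgam2 and Sucla2, each with a higher mean with propionic acid. Over all tested genes 6.29% had such a p, 4.07% with a higher mean, so that 4 of 76 is near the background. The voom fit gave counts of 0 and 4. The median log2 difference of the lists lay between -0.05 and 0.13, against 0.0061 over all genes tested. Without control replicates 1 and 3 the medians lay between 0.02 and 0.19, against 0.0095 over all genes tested.

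Partners of the complex and suppliers of its cofactors had a higher mean in 8 of 10 genes, with a median log2 difference of 0.13, and none passed. Over all tested genes, 6512 of 12598 had a higher mean. With the muscle covariate the count for this list was 5 and the median 0.0059. Dld, the E3 enzyme that reoxidizes lipoamide, had 49.6 ± 3.28 FPKM with propionic acid and 44.9 ± 3.01 FPKM in control skin. Lipt1, a lipoyl transferase, had 1.42 ± 0.379 FPKM with propionic acid and 1.02 ± 0.171 FPKM in controls (limma adjusted p = 0.828). Pdpr, the regulatory subunit of the phosphatase, had 5.85 ± 1.60 FPKM with propionic acid and 7.08 ± 1.56 FPKM in controls (limma adjusted p = 0.878). Bola3, an iron-sulfur cluster factor needed for lipoate synthesis, had 10.1 ± 1.22 FPKM with propionic acid and 8.89 ± 0.745 FPKM in controls (0.855).

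Genes that supply pyruvate or carry it elsewhere had a higher mean in 6 of 13 tested, with a median log2 difference of -0.05, and none passed. Without control replicates 1 and 3 the count was 9 and the median 0.07, and with the adipocyte covariate the count was 2 and the median -0.15. Me3 and Slc16a7 were too low to test. Mpc2, a subunit of the mitochondrial pyruvate carrier, had 111 ± 11.6 FPKM with propionic acid and 95 ± 11.6 FPKM in control skin (limma adjusted p = 0.841). Its partner Mpc1 had 35.3 ± 3.33 FPKM with propionic acid and 37.9 ± 0.764 FPKM in controls (0.886). Ldhb, the lactate dehydrogenase subunit of oxidative tissue, had 82.5 ± 8.45 FPKM with propionic acid and 70.6 ± 8.20 FPKM in controls (0.828). Pcx, pyruvate carboxylase, had 27.4 ± 11.3 FPKM with propionic acid and 37.7 ± 14.5 FPKM in controls (0.860).

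Glycolysis genes had a higher mean in 7 of 21, with a median log2 difference of -0.05, and none passed. Without control replicates 1 and 3 the count was 14 of 21 and the median 0.19, and with the muscle covariate the count was 11 and the median 0.01. Pfkm, the muscle phosphofructokinase, had 69.6, 57.7, 60.3 and 76.7 FPKM in propionic acid replicates 1 to 4, against 36.8, 41.7, 26.6 and 42.8 FPKM in control replicates 1 to 4. The groups did not overlap, the log2 difference was 0.83 (SE 0.16), and the limma adjusted p of 0.263 was the lowest of the 76 genes. Pfkfb1, a fructose bisphosphate regulator of liver and muscle, had 2.65 ± 0.516 FPKM with propionic acid and 1.73 ± 0.607 FPKM in control skin (0.770). Pgam2, the muscle phosphoglycerate mutase, had 75.1 ± 23.0 FPKM with propionic acid and 50.0 ± 13.7 FPKM in controls (0.786). Hk2, hexokinase 2, had 11.3 ± 1.91 FPKM with propionic acid and 14.3 ± 3.0 FPKM in controls (0.839), and Slc2a1, the glucose transporter GLUT1, 43.9 ± 7.03 FPKM with propionic acid and 54.9 ± 13.8 FPKM in controls (0.848).

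In the tricarboxylic acid cycle, which takes up the acetyl-CoA the complex makes, 11 of 16 genes had a higher mean and none passed. Sucla2, the ATP-forming succinyl-CoA ligase subunit, had 42.5 ± 1.99 FPKM with propionic acid and 35.0 ± 2.94 FPKM in control skin (limma adjusted p = 0.724), without overlap. Suclg1, its partner subunit, had 65.2 ± 8.74 FPKM with propionic acid and 55.3 ± 3.24 FPKM in controls (0.821). Succinyl-CoA is also where propionate enters the cycle after conversion through methylmalonyl-CoA. Sdhd, a succinate dehydrogenase subunit, had 86.0 ± 9.05 FPKM with propionic acid and 93.1 ± 7.26 FPKM in controls (0.886), and Dlst, the E2 of the oxoglutarate dehydrogenase complex, 38.2 ± 2.54 FPKM with propionic acid and 40.5 ± 6.21 FPKM in controls (0.934).

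The sister complex for branched-chain amino acids has its own kinase, Bckdk, related to the Pdk proteins, and its own phosphatase, Ppm1k. All 5 genes of that list had a higher mean with propionic acid (3 of 5 without control replicates 1 and 3) and none passed. Bckdhb, its E1 beta subunit, had 13.8 ± 0.697 FPKM with propionic acid and 11.4 ± 1.90 FPKM in control skin (limma adjusted p = 0.812). The log2 differences of Bckdk, Bckdha, Dbt and Ppm1k were 0.02, 0.05, 0.02 and 0.10.

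Transcription factors and coactivators known to act on Pdk genes had a higher mean in 5 of 11 tested, with a median log2 difference of -0.02, and none passed. With the muscle covariate the count was 9 and the median 0.06, and without control replicates 1 and 3 they were 6 and 0.03. Ppard, a fatty acid-sensing receptor that induces Pdk4 in muscle, had 15.4 ± 2.99 FPKM with propionic acid and 16.7 ± 3.62 FPKM in control skin, a log2 difference of -0.11 (95% interval -0.50 to 0.29). Its heterodimer partner Rxra had 35.5 ± 4.92 FPKM with propionic acid and 41.5 ± 2.16 FPKM in controls (limma adjusted p = 0.820). Foxo1, a forkhead factor of the fasting response, had 9.71 ± 0.936 FPKM with propionic acid and 8.85 ± 0.518 FPKM in controls (0.881), and its relative Foxo3 12.3 ± 0.756 FPKM with propionic acid and 11.8 ± 1.69 FPKM in controls (0.934). Ppargc1b, a coactivator related to PGC-1 alpha, had 0.969 ± 0.262 FPKM with propionic acid and 1.19 ± 0.196 FPKM in controls (0.878). Ppargc1a, the coactivator PGC-1 alpha, was too low to test, at 0.237 ± 0.0451 FPKM with propionic acid and 0.206 ± 0.101 FPKM in controls.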

How the data were processed

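Total RNA of 8 skin samples was extracted with TRIzol, and 1 µg per sample was made into libraries with the VAHTS Universal V6 kit, per the labels. The authors deposited FPKM values for 25378 genes. Per the submitters' processing notes, CASAVA, cutadapt and HISAT2 2.1.0 were used with build mm10. Which program counted reads, with which strand setting and annotation, is not given in the sources used here, so reads of overlapping genes cannot be told apart.

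Low values of each gene were multiples of what 1 read is worth, and whole reads were recovered for 100% of genes (tolerance 0.01 of a read). Reads give depth and the voom alternative, and floors and intervals from them cover counting error only. The main fit was limma 3.58.1 (R 4.3.3) on log2(FPKM + 1), 2-sided and without covariates, using robust empirical Bayes with a mean trend. Benjamini-Hochberg adjustment ran over the 12598 genes that reached 1 FPKM in 4 or more libraries. Fold changes of low genes are understated on this scale. This step was tested on simulated data, drawn gene by gene without the split among control libraries, and nothing is concluded from that here. Named genes are the 10 members, up to 2 higher and 2 lower genes of each pathway list by smallest p, marker genes and the 5 genes most like Pdk4 in each of 2 forms. A gene that the rule names is not reported here. Other genes named were chosen after their values were seen. Members, gene lists and alternatives were chosen with earlier results of these data known. The labels give no pairing, and same-numbered libraries of the groups did not deviate together, so no pairing was used.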

Additional observations from a re-analysis of the deposited data

Results flagged for a closer look

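In 28 groups of 4 libraries (the 10 genes and 4 ratios between them, in each group), 4 had 1 library set apart from the rest by Dixon's criterion, and chance flags about 1 in 20 groups. The Pdk4 share of summed Pdk FPKM was 66.4% in propionic acid replicate 3, against 79.1% to 80.3% in the other 3 libraries of its group, and it is still above the highest control at 46.6%. Pdha1 was 86.0 FPKM in propionic acid replicate 3, against 77.5 to 78.6 in the others. Pdhx was 8.98 FPKM in control replicate 1, against 7.87 to 7.91 in the other controls. The ratio of Dlat to Pdhx FPKM was 1.39 in propionic acid replicate 4, against 1.81 to 1.88 in the others.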

How the results depend on the processing

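Over 20 alternative fits the Pdk4 difference ranged from 2.1 without control replicates 1 and 3 to 3.71 with the adipocyte covariate. It was 2.66 to 3.35 with single libraries left out. For Pdk4 and Pdk1 the groups did not overlap, so pseudocount, filter, replicate block and left-out libraries could not change the sign. The cause of the drop without the 2 controls was not tested. The gap in Pdk4 share was 34.3 percentage points without those controls and 41.7 to 51.1 with single libraries left out, and the difference in kinase to phosphatase ratio was 16.2 to 22.2. Pdk1 kept its direction in all 20 fits, as did Pdhb and Pdhx, and Pdk2 in all but that without control replicates 1 and 3. The sign of Pdha1, Pdk3, Pdp2, Dlat and Pdp1 differed in 7, 5, 5, 3 and 1 of 20.

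The count of genes past the threshold was 1 with library weights (Ucp3) and 0 to 2 with single libraries left out (Ucp3 without control replicate 2, Nr1d2 and Cbln1 without control replicate 3), and never a gene of the members or pathway lists. The number of genes at an unadjusted p under 0.05 was 1351 of 25378 tested with no low-value filter. Of 12598 tested it was 1916 with library weights, 1680 with the adipocyte covariate and 505 without control replicates 1 and 3. With single libraries left out it was 442 to 1238, the lowest without control replicate 3 and the highest without control replicate 2. Without propionic acid replicate 1 it was 524. With the replicate number as a block it was 700, with 0 past the threshold. The Pdk4 difference was then 3.0, which such a block cannot change, with an SE of 0.36 against 0.49 in the main fit. Correlations of deviations between same-numbered libraries were -0.319 to 0.2, which cannot show whether the samples were paired. Depth limits Pdp2 most.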
